A study of Mus musculus with 6 samples.

Results

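The 42 genes described here drive, copy or restrain the cell cycle, and the question was whether their open chromatin in CD8+ T cells differed with the tumour cells cultured across a membrane. All 34 genes with a listed start had a region open in all 6 libraries within 1 kb of it, against 53.9% of all genes. None of these start regions passed the test for a difference in relative height, against 2.43% of such regions over all genes. Of the regions of the 42 genes, 194 were open in every library. With a hairpin against Fabp7 in the tumour cells, 5 ranked higher (at Aurkb, E2f3, Mcm3, Cdk6 and Ccnd3) and 1 lower (at Cdc6). These shares of 2.58% and 0.515% were no larger than those of all such regions (2.72% and 1.19%), and of the 6 only the Aurkb region passed with any single library left out. A further 8 regions, at Cdk6, Rb1, Rbl1, Mdm2, Mcm4, Rrm2 and Cdk1, were called in every library of that group and in no control library, a share close to that of all regions.

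The members were taken by name from a fixed list of 42 genes, out of 21887 protein-coding genes, and the rule for choosing them used no measured value. They comprised 21 regulators and inhibitors of the G1 phase, 10 genes of DNA replication and 11 genes of mitosis. Open regions were merged from the peaks of the 6 libraries, and each region went to the gene body nearest to its midpoint within 100 kb, which gave these genes 380 of 134174 regions (303, 34 and 43 in the order above).

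All libraries were ATAC-seq libraries, in which a transposase cuts and tags accessible DNA, from mouse spleen CD8+ T cells obtained by removing other cell types. The T cells were stimulated with antibodies against CD3 (5 µg/mL) and CD28 (1 µg/mL) and sat for 48 h in the lower well of a transwell plate. The upper insert held PD-1-resistant lung adenocarcinoma cells, either the control line Res-ctrl (3 libraries) or Res-shFabp7 (3 libraries), in which a short hairpin RNA lowers the fatty acid binding protein gene Fabp7. The knockdown was thus in the tumour cells and not in the cells sequenced. The strain, age and number of the mice, the number of hairpins or clones and the construct in Res-ctrl were not stated in the labels.

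Cyclins D1, D2 and D3 with the kinases Cdk4 and Cdk6, and then cyclin E with Cdk2, phosphorylate the retinoblastoma proteins (Rb1, Rbl1, Rbl2), which frees E2F factors to switch on the genes of S phase. Inhibitors of the Cip/Kip and Ink4 families and the Trp53 pathway hold these kinases back. In S phase the Mcm helicase, loaded on origins by Cdc6 and Cdt1, unwinds DNA, and cyclins A and B with Cdk1 then lead the cell into mitosis. Naive T cells rest outside the cycle and enter rapid division after activation through CD3 and CD28.

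DNA elements of a few kinds mark many promoters of this pathway, such as the E2F site of S phase genes and the CHR element (cell cycle genes homology region) of mitotic genes, often close to a CCAAT box. The promoters of 6 members are shown. All of them were open in every library, and none in their group carried more kinds of element, with the CDE and NRF1 letters described below also counted. E2f2, Mcm2, Mcm6 and Top2a tied with members shown, and the number of matches, CDE letters included, settled the ties. Each is 170 bases long, ends on the base before the gene start and reads 5′ to 3′ on the gene's strand, from RefSeq with build GRCm38.p6. Capitals mark letters of an E2F site (TTTCCCGC, TTTCGCGC, TTTGCCGC or TTTGGCGC), a CHR (TTTGAA) or a CCAAT box (CCAAT), on either strand. The windows are chr13:29986064-29986233 (minus strand) for E2f3, chr10:128705052-128705221 (minus) for Cdk2, chr5:138171884-138172053 (minus) for Mcm7, chr8:75109339-75109508 (plus) for Mcm5, chr10:69352913-69353082 (minus) for Cdk1 and chr7:135716380-135716549 (minus) for Mki67.
E2f3: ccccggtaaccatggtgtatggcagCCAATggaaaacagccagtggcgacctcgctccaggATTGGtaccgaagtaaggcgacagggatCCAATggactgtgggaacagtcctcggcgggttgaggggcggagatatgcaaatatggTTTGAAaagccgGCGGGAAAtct
Cdk2: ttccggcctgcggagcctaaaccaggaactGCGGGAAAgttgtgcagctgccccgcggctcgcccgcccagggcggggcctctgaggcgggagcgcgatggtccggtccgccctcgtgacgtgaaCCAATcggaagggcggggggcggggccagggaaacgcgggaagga
Mcm7: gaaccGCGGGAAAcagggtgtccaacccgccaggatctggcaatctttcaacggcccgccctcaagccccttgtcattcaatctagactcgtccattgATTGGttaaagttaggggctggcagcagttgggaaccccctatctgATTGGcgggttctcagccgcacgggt
Mcm5: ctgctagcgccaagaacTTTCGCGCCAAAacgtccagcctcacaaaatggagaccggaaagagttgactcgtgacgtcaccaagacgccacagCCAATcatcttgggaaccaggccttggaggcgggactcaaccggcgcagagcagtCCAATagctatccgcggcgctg
Cdk1: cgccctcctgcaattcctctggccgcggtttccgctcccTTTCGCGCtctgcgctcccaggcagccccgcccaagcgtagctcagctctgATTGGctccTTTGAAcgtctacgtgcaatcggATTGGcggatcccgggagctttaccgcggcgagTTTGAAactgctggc
Mki67: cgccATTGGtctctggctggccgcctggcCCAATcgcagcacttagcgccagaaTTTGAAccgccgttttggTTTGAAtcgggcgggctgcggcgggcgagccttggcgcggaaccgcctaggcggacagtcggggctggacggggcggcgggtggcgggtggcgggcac

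In the Mcm5 promoter, which belongs to a subunit of the replicative helicase, 2 overlapping E2F matches on opposite strands spanned positions -153 to -146 and -149 to -142 from the start. The promoter of Cdk1, the kinase that drives entry into mitosis, held an E2F match at -131 to -124, a CHR at -71 to -66 and another at -15 to -10. The letters CGCGG, those of a CDE (cell cycle dependent element), stood at -24 to -20, just ahead of the second CHR. The Mki67 promoter, of the proliferation marker Ki-67, held a CHR at -116 to -111 and another at -98 to -93, and no E2F match.

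Over the 250 bases upstream of the 40 listed starts of 34 members, E2F letters occurred at 8 starts (20%), against 2.35% of 21263 starts of all genes and 3.68% of the 11251 starts with a peak region nearby in all 6 libraries. Of these 8 starts, 4 belonged to replication genes (Cdc6, Mcm5, Mcm6 and Mcm7), 3 to G1 genes (Cdk2, E2f3 and Rbl1) and 1 to a mitosis gene (Cdk1). CHR letters were at 4 of 9 mitosis starts (Ccnb2, Cdk1, Mki67 and Top2a), 3 of 21 G1 starts and 1 of 10 replication starts, which made 20% of all member starts, against 14.5% of all starts and 9.97% of open ones. CCAAT letters were at 8 of 9 mitosis, 8 of 10 replication and 9 of 21 G1 starts, 62.5% in all, against 35.4% of all starts and 36.3% of open ones. The letters of an NRF1 site (GCATGCGC) were at 1 member start, that of Cdt1 (2.5%), against 2.93% of all starts. The CDE letters (GGCGG or CGCGG, which overlap GC-rich sites of other kinds) were at 92.5% of member starts, but also at 84.5% of open starts, and were left in lower case. These matches describe letters in a window and not bound factors.

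The 6 peak lists held 82153 to 105796 peaks, with 103538 ± 2918 (SD, n = 3) for Res-shFabp7 and 87769 ± 7518 (SD, n = 3) for Res-ctrl. The coverage of the local background, recovered from the deposited values and used as a relative measure of depth, was 0.868 to 1.03 in the Res-shFabp7 libraries, 0.709 and 0.608 in Res-ctrl 1 and 2, and 1.01 in Res-ctrl 3. Res-ctrl 3 therefore stood apart from the other control libraries and close to the Res-shFabp7 libraries in depth, and results are given with and without it where it matters. All 7 CD8 T cell marker genes had a region open in every library. A region open in every library was also found at 4 of 4 CD4 T cell markers, 3 of 5 NK cell, 5 of 6 myeloid, 4 of 6 B cell, 3 of 4 erythroid and 2 of 6 lung epithelium markers, while Ms4a1, Sftpc, Krt8 and Hbb-bt had no region at all. In such bulk libraries, fewer cells with an open region and a less open region in each cell cannot be told apart.

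Each of the 34 cell cycle genes with a listed start was open there in every library, and replication genes had the highest median height of the 3 groups. The height of a peak is its pileup, the coverage at its summit. Heights were compared as percentiles within a library among the 56610 regions with a peak in all 6 libraries (100 being the tallest). All 34 members with a listed start had such a region within 1 kb of it, against 53.9% of 17492 genes (9434 genes). The median percentile of the tallest region at the start was 90.7 for the members, 89.2 for G1 genes, 95.6 for replication genes and 83.3 for mitosis genes, beside 86.0 for the starts of all genes. The summits lay at a median of 76 bp upstream of the start.

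**Figure D1:**
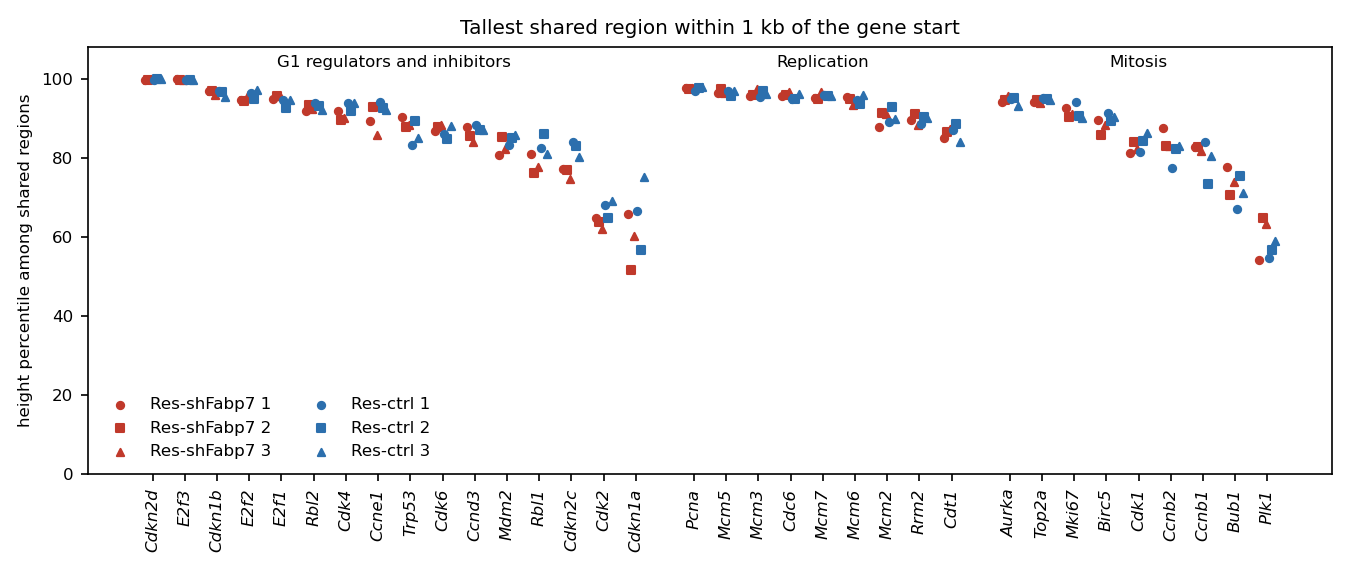
Height percentile of the tallest region within 1 kb of the start of 34 cell cycle genes (vertical axis, percentile of pileup among the 56610 regions open in all 6 libraries), one symbol per library, ordered by mean within 3 groups of genes. Symbols of both groups lie on top of each other at most genes, from a mean of 99.8 at Cdkn2d down to 58.8 at Plk1.

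At Cdkn2d, which encodes the Ink4 inhibitor p19, the start region had pileups of 485, 489 and 589 in the Res-shFabp7 libraries and 430, 387 and 587 in the Res-ctrl libraries, and its mean percentile of 99.8 was the highest among members. The start of E2f3, a transcriptional activator of S phase genes, followed with pileups of 544, 463 and 494 against 391, 366 and 569 (mean percentile 99.7). At both genes the groups overlapped, with Res-ctrl 1 and 2 lowest and Res-ctrl 3 as high as the Res-shFabp7 libraries. Raw pileups grow with depth, so the groups were compared by rank.

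Among replication genes, the start of Pcna, the sliding clamp of DNA polymerase, had pileups of 321, 287 and 327 in the Res-shFabp7 libraries and 234, 229 and 356 in the Res-ctrl libraries, and percentiles of 96.8 to 97.8. The start of Mcm2, a helicase subunit, had 156, 179 and 185 against 133, 145 and 189, with a mean percentile of 90.3. Both groups overlapped at these starts. The starts of Mcm5 (96.6), Mcm3 (96.2), Cdc6 (95.7) and Mcm7 (95.6) lay between them, and Cdt1, whose product loads the helicase, had the lowest replication start at 86.4.

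Among mitosis genes the start percentiles were more spread. Aurka (94.6, a region it shares with Cstf1), Top2a (94.5) and Mki67 (91.4) were highest. The Mki67 start had pileups of 205, 168 and 185 against 182, 127 and 191, and the Cdk1 start 117, 124 and 120 against 91, 92 and 158. In both cases the groups overlapped. Plk1, which encodes a kinase of spindle assembly, had the lowest value of all members when the tallest start region of each gene was compared, with pileups of 51, 62 and 62 against 36, 35 and 59 and a mean percentile of 58.8.

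The start of Cdkn1a, the inhibitor p21 that Trp53 induces, had the lowest value of the G1 group when the tallest start region of each gene was compared. Its second listed start had pileups of 69, 44 and 57 in the Res-shFabp7 libraries and 51, 35 and 99 in the Res-ctrl libraries (mean percentile 62.6), and its other listed start had no peak in any library. The lower of the listed E2f2 starts had a mean percentile of 60.3. Mdm2, which encodes the ligase that degrades p53, had a start region with pileups of 115, 131 and 119 against 99, 95 and 153 (mean percentile 83.7). E2f1 had 239, 242 and 255 against 188, 144 and 256 (94.6), and Cdk6 had 149, 149 and 161 against 113, 94 and 171 (87.0). The pileups of the groups overlapped at all 4 of these starts, and at E2f1 the percentiles did not. Elsewhere in the G1 group the mean percentiles were 96.3 at Cdkn1b, 95.5 at E2f2, 91.9 at Cdk4, 91.1 at Ccne1, 86.6 at Ccnd3 and 65.4 at Cdk2, whose region also touches Pmel. The tallest region within 1 kb of the Trp53 start was nearer to Wrap53, and its percentile was 87.3.

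No start region passed the test between the groups. Limma was run on normal scores of the ranks. On this scale a difference of 1 is 1 SD of the scores in a library, not of the pileups. In limma 0 of 34 start regions passed an adjusted p of 0.05, against 2.43% of the start regions of all genes (229 of 9434). The lowest adjusted p (limma) at a member start was 0.102, at both Cdkn2c and Ccne1. An unadjusted p under 0.05 was found at 5 of 34, all of them G1 genes with lower values in Res-shFabp7 (Cdkn2c, Ccne1, Cdk4, Rbl1 and E2f2), beside 17.1% of all regions near a start in either direction. The starts of all genes leaned to lower values too, with a score difference below 0 at 60.0% of the 9434. Among members it was below 0 at 11 of 16 G1, 4 of 9 replication and 4 of 9 mitosis starts. The Cdkn2c start region, of the Ink4 inhibitor p18, had a mean percentile of 76.2 with Res-shFabp7 and 82.3 with Res-ctrl (score difference -0.22 ± 0.078, SE). The Cdkn2c percentiles did not overlap between the groups, with 74.6 to 77.0 against 80.2 to 84.0.

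Several G1 regulators had many open regions, while replication and mitosis genes had fewer. The 21 G1 genes held 152 regions open in all 6 libraries, the 10 replication genes 23 and the 11 mitosis genes 19. The medians per gene were 4, 2 and 2, beside 1 for all protein-coding genes. Of the 42 members, 41 had at least 1 such region, against 64.3% of all genes, and 6 (14.3%) had 10 or more, against 5.34% of all genes. All 6 were G1 genes. Genes with more surrounding sequence can hold more regions, so these counts are not levels. Per 100 kb of the sequence nearest to it, Cdk6 had 7.76 such regions, Ccne1 20.1 and Cdc6 26.0, while Mki67 had 2.34 and Cdk1 1.54. Such values varied within each group, with 2.73 at the G1 gene Ccnd1, 3.02 at Mcm5 and 20.5 at the mitosis gene Aurkb.

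**Figure D2:**
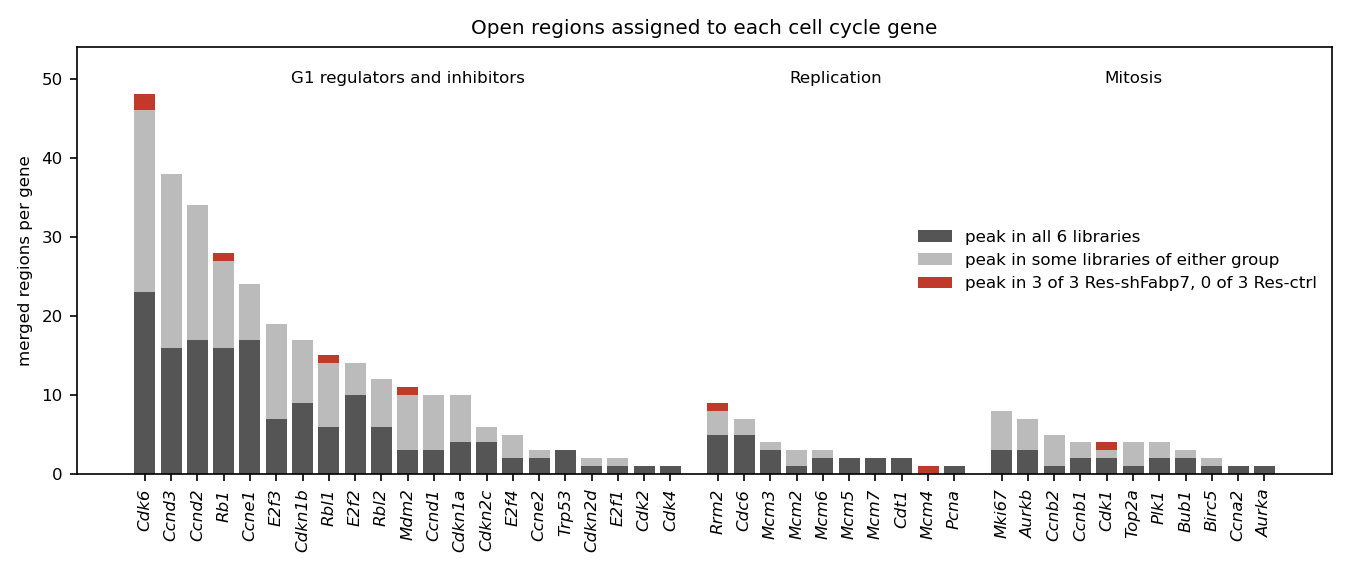
Number of merged open regions assigned to each of the 42 genes (bars, vertical axis), split into regions with a peak in all 6 libraries, in some libraries of either group, and in 3 of 3 Res-shFabp7 but 0 of 3 Res-ctrl libraries. G1 regulators on the left reach 48 regions at Cdk6, and Mcm4 has a single region.

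Cdk6, the kinase partner of D cyclins, had 48 regions, of which 23 were open in all 6 libraries, 22 of these inside its gene body of 190 kb. Its tallest region, chr5:3460801-3461344, lay 117179 bp after the listed start and had pileups of 269, 228 and 265 with Res-shFabp7 and 182, 162 and 301 with Res-ctrl. Res-ctrl 3 was the highest and Res-ctrl 2 the lowest of the 6 libraries there. Only 163 of 21887 genes had more regions open in all libraries than Cdk6.

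Ccnd2, the cyclin D2 gene, had 17 of 34 regions open in all 6 libraries, and 12 of these lay outside its gene body. Regions of similar height stood at chr6:127152150-127152747, 260 bp outside the gene body, with pileups of 234, 247 and 270 against 187, 188 and 273, and at chr6:127245731-127246361, 93858 bp outside, with 245, 256 and 288 against 190, 160 and 268. The pileups overlapped at both regions, and the percentiles at the nearer one only. Neither passed in limma. Ccne1, the cyclin E1 gene, also had 17 regions open in all libraries, but only 1 lay inside its gene body of 9.51 kb. The tallest Ccne1 region, chr7:38084611-38085428, lay 12965 bp beyond the gene body and had pileups of 249, 260 and 262 against 244, 202 and 307.

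Ccnd3, the cyclin D3 gene, had 16 of 38 regions open in all libraries, 15 of them inside the gene, and the tallest was chr17:47507804-47508569 with 253, 241 and 228 against 185, 139 and 229. Rb1 also had 16, but the tallest of them reached a mean percentile of only 63.9. E2f2 had 10, Cdkn1b (the inhibitor p27) 9, E2f3 7, Rbl1 and Rbl2 6 each, Cdkn1a and Cdkn2c 4 each, and Ccnd1, Trp53 and Mdm2 3 each. Ccne2 and E2f4 had 2 each, and Cdk2, Cdk4, Cdkn2d and E2f1 had 1 each. The D cyclins thus differed from one another, with 3 such regions at Ccnd1 against 17 at Ccnd2 and 16 at Ccnd3.

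Of the replication genes, Cdc6 and Rrm2, the small subunit of ribonucleotide reductase, had 5 regions open in all libraries and Mcm3 had 3. Mcm5, Mcm6, Mcm7 and Cdt1 had 2 each, and Mcm2 and Pcna 1 each. Mcm4 had none. Of the mitosis genes, Mki67 and Aurkb had 3 each, Ccnb1, Cdk1, Plk1 and Bub1 had 2 each, and Ccna2, Ccnb2, Top2a, Aurka and Birc5 had 1 each. In the 42 genes together, 51.1% of the regions (194 of 380) were open in all libraries, against 42.2% of all regions. The share was 67.6% for replication genes and 44.2% for mitosis genes.

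Some regions near cell cycle genes were called only with Res-shFabp7, at a rate close to that of the genome. Of the 380 regions, 8 (2.11%) had a peak in every Res-shFabp7 library and in no Res-ctrl library, and the background was 2.28% (3065 of 134174). The reverse pattern was found at 0 of 380 member regions, against a background of 0.155% (208 regions). The 8 regions comprised 5 at G1 genes, 2 at replication genes and 1 at a mitosis gene. For a single region, 3 libraries against 3 allow no exact permutation p under 0.1, so no test was run. A missing peak is also not a closed region, because the authors listed no value there.

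Of these 8 regions the tallest were at the pocket protein gene Rbl1 and at Mcm4. The Rbl1 region, chr2:157202417-157202672, lay 1990 bp after the start and had pileups of 37, 49 and 40 and a fold over local background of 2.82, 3.97 and 3.02. The Mcm4 region, chr16:15636713-15636854, lay inside the gene, with pileups of 39, 32 and 31 and folds of 3.05, 2.63 and 2.32, and it was the only region assigned to Mcm4. By their summits, 2, 2 and 1 peaks with Res-shFabp7 and 0, 0 and 1 with Res-ctrl lay nearest to Mcm4, so Res-ctrl 3 also had a peak there, in a region given to another gene by its midpoint. Pileup and fold are the authors' values for each peak. Cdk6 had 2 of the 8 regions, both inside the gene. At chr5:3358793-3358960, 14983 bp after the start, the pileups were 34, 27 and 25, and at chr5:3372145-3372366 they were 9, 8 and 12.

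The remaining 4 regions were low. Cdk1 had a region at chr10:69352261-69352398, 583 bp after its start, with pileups of 15, 19 and 16. Mdm2 had one at chr10:117715228-117715361, 4536 bp upstream, with 17, 21 and 18. Rb1, the retinoblastoma gene, had one inside the gene at chr14:73218335-73218495 with 12, 12 and 8. Rrm2 had one at chr12:24701711-24701873, 6462 bp upstream, with 7, 12 and 8. The median pileup of all peaks in a library was 22 to 27, so these 4 were weaker than a typical peak.

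The number of such regions moved with the length of the lists. With every list shortened to the same length, the 82153 strongest peaks, 3 member regions were specific to Res-shFabp7 and 2 to Res-ctrl, beside backgrounds of 1.13% and 0.525% of 108710 regions. Of the 8 regions, the Rbl1 region and the Cdk6 region at chr5:3358793-3358960 kept 3 of 3 against 0 of 3. The third was at Ccnd2 (chr6:127170669-127171110, 18701 bp outside the gene), where Res-ctrl 3 had a peak of pileup 10 in its full list, beside 15, 14 and 15 with Res-shFabp7. The Res-ctrl regions were inside Mdm2 (chr10:117709696-117709790) and inside Rrm2 (chr12:24709508-24709638), and in the full lists each also had a peak in some Res-shFabp7 libraries. With 1 library left out, the count of 8 became 17 without Res-shFabp7 2 and 14 without Res-ctrl 3, and it was 8 to 12 without any other library. The count of 0 in the reverse direction became at most 3, without Res-ctrl 2. Leaving out a library drops a condition on the same regions, so both counts could stay or rise but not fall. Over all 380 regions, more Res-shFabp7 than Res-ctrl libraries held a peak in 26.8% and fewer in 13.2%, against 38.5% and 11.8% of all regions.

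The relative height of the shared regions differed at 6 places near cell cycle genes. Of 194 member regions open in all libraries, 5 passed the limma threshold as higher with Res-shFabp7 (2.58%), beside 2.72% of all 56610 regions (1538), and 1 as lower (0.515%), beside 1.19% (674). At an unadjusted p under 0.05 there were 39 of the 194 member regions (20.1%), beside 19.1% of all regions. The median score difference was -0.00055 for member regions and -0.01 for all regions, and 97 of the 194 differences were above 0. By group, 3 of 152 G1 regions were higher and none lower, 1 of 23 replication regions was higher and 1 lower, and 1 of 19 mitosis regions was higher. Counts of this size, near the background, describe single regions and not the gene list.

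**Figure D3:**
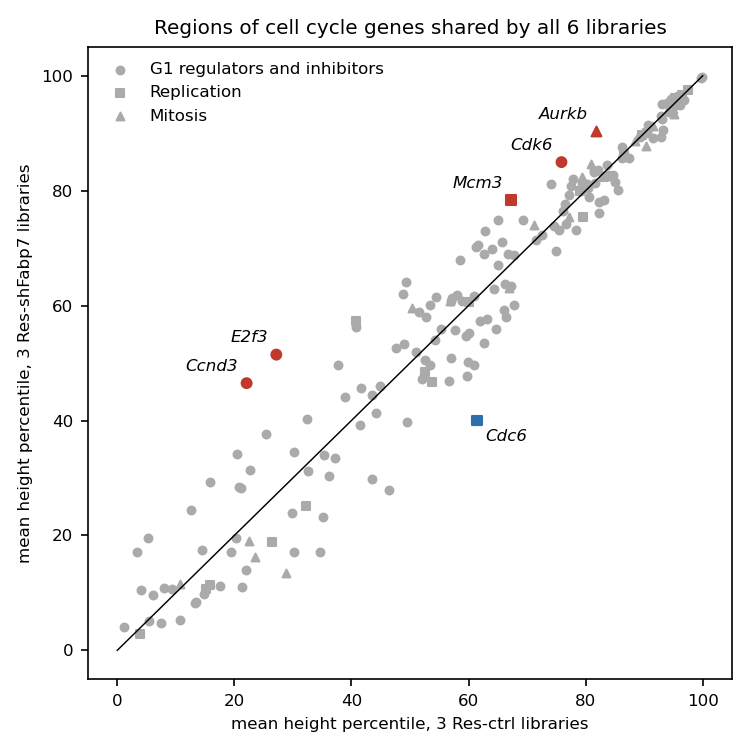
Mean height percentile of 194 member regions in the 3 Res-ctrl libraries (horizontal axis) and the 3 Res-shFabp7 libraries (vertical axis), with the line of equal height and symbols by gene group. Most points follow the line, and the 6 regions past the limma threshold are coloured and named, 5 above the line and Cdc6 below it.

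The region with the lowest adjusted p lay near Aurkb, which encodes the kinase of the chromosomal passenger complex. At chr11:69040917-69041364, 4484 bp outside the gene body, the pileups were 199, 146 and 188 with Res-shFabp7 and 81, 94 and 129 with Res-ctrl. Each Res-shFabp7 pileup was above each Res-ctrl pileup, though raw pileups grow with depth. Regions past the threshold were picked on these same values, so a lack of overlap here or below adds no support. The mean percentile was 90.3 against 81.8, and the score difference was 0.40 ± 0.076 (SE, limma, adjusted p = 0.00191). A region at the edge of the Aurkb gene body, chr11:69045476-69045728, had pileups of 174, 142 and 169 against 129, 119 and 165 and did not pass (adjusted p = 0.93 in limma).

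Among G1 genes, the E2f3 region at chr13:29979100-29979534, inside the gene and 5074 bp after the nearer listed start, had pileups of 47, 41 and 50 with Res-shFabp7 and 17, 15 and 30 with Res-ctrl. The mean percentiles were 51.5 and 27.2 (score difference 0.65 ± 0.165, SE, limma adjusted p = 0.0181). The pileups of the groups did not overlap. The tall E2f3 start region, with the promoter printed above, had a score difference of 0.03.

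The Ccnd3 region at chr17:47554334-47554940, inside the gene, had pileups of 37, 39 and 47 against 17, 10 and 29, again with no overlap. Its mean percentiles were 46.5 and 22.1 (score difference 0.73 ± 0.200, SE, limma adjusted p = 0.0301), the largest difference of the 6 regions. It was not among the 4 higher regions left when a library's peaks had to cover 50% of a region. The Cdk6 region at chr5:3300808-3301490, 39855 bp outside the gene on the side of its start, had pileups of 140, 119 and 145 against 56, 62 and 140. Here the groups overlapped, since Res-ctrl 3 was as high as the Res-shFabp7 libraries. The Cdk6 percentiles averaged 85.0 and 75.9 (score difference 0.32 ± 0.0866, SE, limma adjusted p = 0.0269).

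Both calls at replication genes were near factors of origin licensing and went in opposite directions. The Mcm3 region at chr1:20825080-20825378, 4917 bp upstream of the start, had pileups of 107, 95 and 104 with Res-shFabp7 and 43, 52 and 86 with Res-ctrl, with no overlap. Its mean percentiles were 78.3 and 67.3 (score difference 0.33 ± 0.0884, SE, limma adjusted p = 0.0248). The Cdc6 region at chr11:98918280-98918521, inside the gene and 10249 bp after the start, had pileups of 32, 43 and 32 against 54, 39 and 54. The Cdc6 pileups overlapped, but the percentiles did not, with 33.6, 50.6 and 35.7 against 68.1, 60.5 and 55.8. Their means were 39.99 and 61.5 (score difference -0.55 ± 0.137, SE, limma adjusted p = 0.0146).

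**Figure D4:**
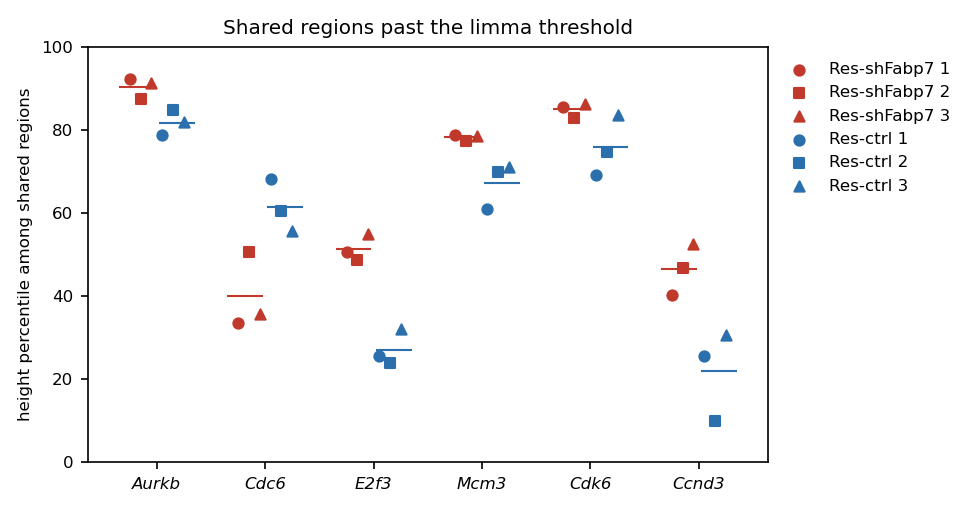
Height percentile (vertical axis) of the 6 member regions past the limma threshold, one symbol per library and a line at the mean of each group. Res-ctrl 3 lies nearest to the Res-shFabp7 libraries at Mcm3, Cdk6, E2f3, Ccnd3 and Cdc6.

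How far these 6 calls rest on single libraries differed. The Aurkb region passed with any of the 6 libraries left out, with a highest adjusted p of 0.0468 (limma) without Res-shFabp7 1. The E2f3 and Cdc6 regions passed in 3 of 6 such fits, Mcm3 and Ccnd3 in 2 and Cdk6 in 1. The 5 higher regions became 1 without any single Res-shFabp7 library, 3 without Res-ctrl 1 or Res-ctrl 2 and 7 without Res-ctrl 3. The single lower region was lost without Res-shFabp7 1, Res-shFabp7 3 or Res-ctrl 1, and there were 2 without Res-shFabp7 2. Against Res-ctrl 3 as the only control, a setting added after the data were seen in which that lone library is assumed to vary like the others, 0 of the 6 passed in limma. The score differences then were 0.38 for Aurkb, 0.44 for E2f3, 0.36 for Ccnd3, 0.21 for Mcm3, 0.05 for Cdk6 and -0.36 for Cdc6, and the adjusted p in limma was 0.0644 for Aurkb and 0.346 to 0.913 for the others.

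None of the 6 called regions lay within 1 kb of a listed start. No start was listed for Ccnd1, Ccnd2, Ccne2, Rb1, E2f4, Mcm4, Ccna2 and Aurkb. Regions at the starts of these genes can therefore count as lying farther away. Of the member regions open in all libraries, 48 lay within 1 kb of a listed start of any gene and 0 passed in limma, with 8 (16.7%) at an unadjusted p under 0.05 beside 17.1% of all regions near a start, while 146 lay farther away and 5 were higher and 1 lower. Over all genes, 0.753% of such regions near a start were higher and 1.64% lower, and 3.24% of those farther away were higher and 1.07% lower.

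The other regions with the highest or lowest moderated statistic of their group of genes did not pass limma's threshold. Near Rrm2, chr12:24706829-24707056, 1312 bp upstream of the start, had pileups of 60, 51 and 48 against 27, 21 and 38 (score difference 0.41 ± 0.134, SE, adjusted p = 0.0659). The pileups of the groups did not overlap there. Inside E2f2, chr4:136180034-136180250 had mean percentiles of 80.1 and 85.5 (adjusted p = 0.0884 in limma). The region near Ccnb1, the cyclin B1 gene, at chr13:100790205-100790598 had 59.5 and 50.3 (adjusted p = 0.277).

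Other values on the lower side also missed the threshold. Inside Ccna2, the cyclin A2 gene, chr3:36571887-36572396 had mean percentiles of 93.4 and 95.2 (adjusted p = 0.168 in limma). A low region 20070 bp outside Mki67, chr7:135736415-135736626, had 13.5 and 28.8, with pileups of 23, 18 and 14 against 18, 16 and 30 (adjusted p = 0.184 in limma). Inside Mcm7, chr5:138170920-138171538 had 75.4 and 79.5 (adjusted p = 0.365 in limma). Ccna2 and Mki67 held the lowest statistics among mitosis genes, and Mcm7 the lowest among replication genes after Cdc6.

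The share of peaks at cell cycle genes had lower values with Res-shFabp7, a difference that the design cannot test at 0.05 and that the starts of all genes shared. The libraries held 310, 312 and 299 peaks at the 42 genes with Res-shFabp7 and 276, 270 and 296 with Res-ctrl. Per 1000 peaks of the library these were 2.96, 2.95 and 2.98 against 3.25, 3.29 and 3.07. The means of 2.97 ± 0.0169 and 3.20 ± 0.115 (SD, n = 3 each) did not overlap, and the two-sided exact permutation p was 0.1, the smallest that 3 against 3 libraries allow (0.125 adjusted over 5 such comparisons). So the difference of -0.239 cannot pass a threshold of 0.05 in this design.

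G1 genes followed the whole list, with 2.35 ± 0.0449 against 2.55 ± 0.0671 per 1000 peaks (SD, n = 3 each, exact permutation p = 0.1). Replication genes had 0.302 ± 0.0168 against 0.355 ± 0.0291 (SD, n = 3 each, exact permutation p = 0.1), from 31, 34 and 29 peaks against 32, 30 and 31. The number of peaks at replication genes was thus similar in both groups, while the lists differed in length. Mitosis genes had 0.315 ± 0.0423 against 0.301 ± 0.0248 (SD, n = 3 each, exact permutation p = 0.6), from 38, 30 and 30 peaks against 25, 27 and 27. Without Res-shFabp7 1 the mitosis difference of 0.0142 turned to -0.0098.

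**Figure D5:**
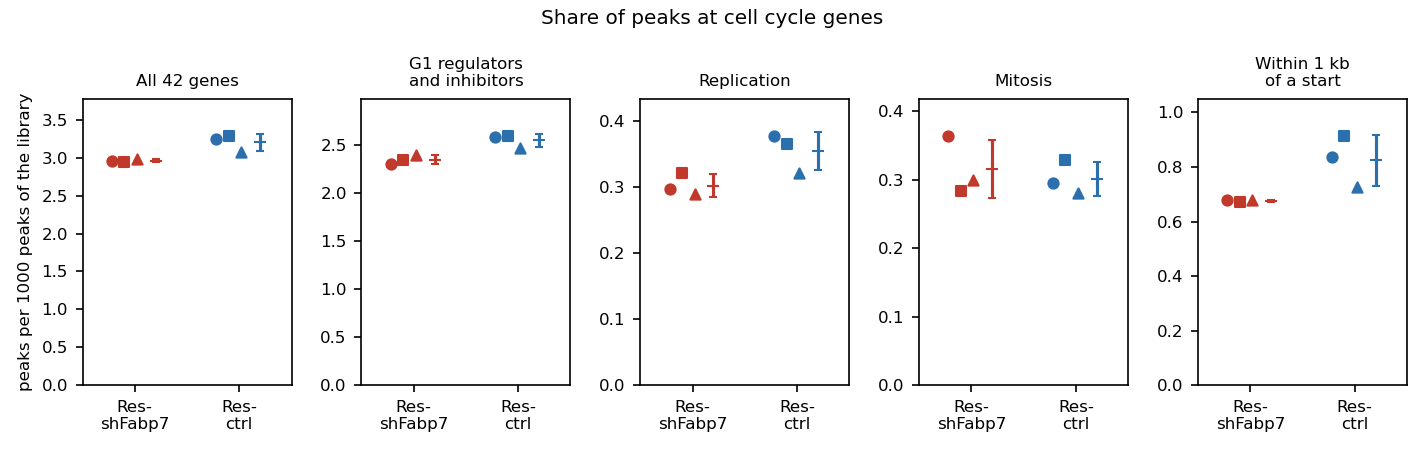
Peaks per 1000 peaks of a library (vertical axes from 0) at all 42 genes, at the 3 groups and within 1 kb of a member start, one symbol per library with mean and SD (n = 3) beside them. Res-shFabp7 values lie below all Res-ctrl values except at mitosis genes, where the groups overlap.

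Near the starts, the number of peaks was similar in all libraries. Within 1 kb of a member start there were 71, 71 and 68 peaks with Res-shFabp7 and 71, 75 and 70 with Res-ctrl, or 0.676 ± 0.00436 and 0.826 ± 0.0936 per 1000 peaks (SD, n = 3 each, exact permutation p = 0.1). The starts of all protein-coding genes moved the same way, with 173 ± 2.11 against 202 ± 16.9 per 1000 peaks (SD, n = 3 each, exact permutation p = 0.1). With lists of equal length the difference over the 42 genes was -0.0893 (exact permutation p = 0.2), that of G1 genes -0.0649 (p = 0.3, exact), that of replication genes -0.0325 (p = 0.1, exact) and that of the starts -0.0609 (p = 0.3, exact), each less than in the full lists. Against Res-ctrl 3 alone the difference over the 42 genes was -0.108.

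Peaks at markers of other cell types were counted in the same way. Per 1000 peaks, the 6 B cell markers had 0.170 to 0.220 with Res-shFabp7 and 0.134 to 0.166 with Res-ctrl, and the 6 lung epithelium markers 0.170 to 0.180 against 0.125 to 0.158. The groups did not overlap at these markers. The 7 CD8 T cell markers had 1.37 to 1.52 against 1.53 to 1.64, and the 4 CD4 T cell markers 0.388 to 0.419 against 0.426 to 0.519, both without overlap in the other direction. The groups overlapped at the 6 myeloid markers (0.268 to 0.340 against 0.280 to 0.318), the 5 NK cell markers (0.388 to 0.421 against 0.390 to 0.495) and the 4 erythroid markers (0.0662 to 0.0898 against 0.0730 to 0.118). Ms4a1 among the B cell markers and Sftpc and Krt8 among the epithelial markers had no region. The lists differed in length, and at the starts of all protein-coding genes the groups did not overlap either (means of 173 and 202 per 1000 peaks), while at mitosis genes they did. Marker shares were not compared in lists of equal length. The part of the marker differences in the results above was not tested.

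A list of 101 other genes of the pathway had 717 regions, of which 302 (42.1%) were open in all libraries. In limma 12 of these 302 regions were higher with Res-shFabp7 (3.97%, beside 2.72% of all regions) and 4 lower (1.32%, beside 1.19%). They comprised 3 higher and 3 lower of 104 at G1 genes, 4 and 0 of 88 at replication genes and 5 and 1 of 110 at mitosis genes. Near Pttg1, which encodes securin, 2 regions were higher. The lower regions were inside Mdm4, Ccng1, Sesn1 and Cdc25b. The Mdm4 region had pileups of 29, 32 and 26 against 42, 40 and 59, which did not overlap. Its mean percentiles were 31.5 and 60.2 (score difference -0.75, limma adjusted p = 0.00217).

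Of the 717 regions, 18 (2.51%, beside 2.28% of all regions) were called only with Res-shFabp7. They were at Cdkn2b, Tfdp1, Tfdp2, Gadd45a, Sesn1, Orc5, Cdc45, Cdc25b, Cenpf, Kif23, Pttg1, Ndc80 and Ect2. The 2 regions called only with Res-ctrl (0.279%, beside 0.155%) were inside Mad1l1, a spindle checkpoint gene, with pileups of 11, 9 and 15, and inside Cenpa, the centromeric histone H3 variant, with 23, 19 and 22. Per 1000 peaks the means of these 101 genes were 5.48 ± 0.116 and 5.51 ± 0.137 (SD, n = 3 each) in the same order of groups (p = 0.9, exact permutation test).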

How the data were processed

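ATAC-seq peaks of 6 libraries were used, 3 per group. The labels call them biological replicates, and p-values measure the spread between these samples. Trim Galore 0.6.5, cutadapt 2.8, Bowtie 1.1.2, MACS2 2.2.7.1 and build mm10 are named in the submitters' processing notes. Read shifting, duplicate removal and the mode of the peak caller were not stated there. The authors called peaks per library and deposited, for each peak, the −log10 of a p-value and of a q-value, a pileup (coverage signal where the peak is highest) and a fold, which is a ratio to local background. Every deposited list ends just under a q-value of 0.05. Positions were read as counted from 0 and are printed from 1. The labels give a range of read pairs for the whole set, not the depth of each library.

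Peaks overlapping by at least 1 bp were merged. Regions went by midpoint, and peaks by summit, to the nearest protein-coding gene body within 100 kb (RefSeq, GRCm38.p6, the assembly of mm10), and ties counted for each gene. All 42 members and all 101 further pathway genes matched. Starts and promoter letters came from a RefSeq table with an entry for 34 members. Exons and introns are not given because the gene table holds neither. The largest pileup of each region with a peak in all libraries was ranked within its library and turned into normal scores. Limma 3.58.1 (R 4.3.3, empirical Bayes with trend, Benjamini-Hochberg over 56610 regions) compared the groups, and the procedure was tested on simulated data. Of 200 regions shifted by 0.5 score units it recovered 39, with 1 false call, and of 200 shifted by 1.0 it recovered 116, with 2. A region that did not pass can therefore still differ. Values with 1 number per library were tested by exact permutation, two-sided.

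The members and gene lists were chosen with earlier results of these data known. The genes given in full are those with a region called in 1 group only or past the limma threshold, the 3 of each group of genes with the most shared regions, the 2 highest and 2 lowest moderated limma statistics per group of genes, members without a shared region, and Cdkn1a, Mdm2, Ccnd2, Ccnd3, Cdk6, E2f1, Mcm2, Pcna, Mki67 and Cdk1. The Aurkb region at the gene edge, Pttg1 and Mdm4 were named after their values were seen. The alternatives tried were q under 0.01 or under 0.001, equal list lengths, 50% coverage of a region, 20 kb to a gene, genes without overlap, 250 bp around starts, quantile-normalised log2 pileups, a replicate block and leaving out each library.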

Additional observations from a re-analysis of the deposited data

How the results depend on the processing

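Of 71 alternatives over 6 counts of regions, 42 stayed within 1.5 times of the main count. The shares per 1000 peaks cannot pass 0.05 in this design. Their alternatives therefore show only the sign and size of a difference, not whether a call holds. With equal list lengths, the member regions called only with Res-shFabp7 went from 8 to 3 and those called only with Res-ctrl from 0 to 2. With 1 library left out these counts were 8 to 17 and 0 to 3. Dropping libraries on the same regions could only keep or raise them, also against Res-ctrl 3 alone. For these counts such alternatives could not show a fall. The shared member regions went from 5 to between 1 and 7 on the higher side and from 1 to between 0 and 2 on the lower side, and over all genes from 1538 to between 267 and 2095 and from 674 to between 168 and 718. Against Res-ctrl 3 alone, chosen after the data were seen, 14 member regions were specific to Res-shFabp7, and 0 were higher and 0 lower in the limma fit. The difference of mitosis genes per 1000 peaks was -0.0098 to 0.0301 with 1 library left out, reversed without Res-shFabp7 1 (the cause was not tested).

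The replicate numbers were not treated as pairs, since the deviations of same-numbered libraries correlated at -0.0245, 0.0150 and -0.0158. With the replicate block, limma called 6 member regions higher and 1 lower, and 1832 and 846 over all genes, and the per 1000 differences had an exact sign-flip p of 0.25, the smallest 3 pairs allow, except mitosis at 0.75. The libraries Res-ctrl 1 and 2 had the shortest lists and the lowest recovered background, and the part of depth in the regions called in 1 group only was not tested. No alternative that was planned was left out.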
